A study of Mus musculus with 6 samples.

Results

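The RNAs described here are H/ACA box small nucleolar RNAs (snoRNAs), chosen by name: every snoRNA whose symbol began with Snora, in upper or lower case, except those numbered 1, 4, 9, 14, 16, 17, 24, 33, 44, 57, 63, 68, 71, 73 and 81. Of 982 snoRNA names and 26187 RNA names in the 4 libraries used, 251 fitted this rule. These members are single genomic loci and carry 57 numbers, of which 40 had more than 1 locus; number 48 had 29. Upper and lower case spellings (SNORA3 and Snora3) are different genes of the annotation, so each is given below with its chromosome or host gene.

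The libraries were made by MARIO, an assay in which RNAs crosslinked to protein are held on beads, joined through a biotin-tagged RNA linker and sequenced as a first fragment (RNA1), the linker and a second fragment (RNA2). ES-1 and ES-2 came from the mouse embryonic stem (ES) cell line E14, strain 129/Ola, grown without feeder cells, crosslinked with ultraviolet light of 254 nm and fragmented with RNase I to about 1000 nt by the labels. For removal of ribosomal RNA, ES-1 was treated with a duplex-specific nuclease (DSN) and ES-2 with the GeneRead kit. ES indirect came from the same line, crosslinked with formaldehyde and EGS, sonicated to about 1000 nt and treated with DSN. MEF came from purchased embryonic fibroblasts of strain C57Bl/6, crosslinked at 254 nm, fragmented with RNase I to about 300 nt and treated with GeneRead. The labels name no transgene, drug or animal age. Only the ultraviolet ES assay has more than 1 library. MEF shares crosslink and depletion with ES-2, so between these libraries cell type, strain, fragment size and flow cell cannot be told apart. ES indirect shares cell line, depletion and, by the labels, fragment size with ES-1. The paper, however, gives fragments of about 1000 nt and longer for ES-1, and about 1000 nt for ES-2. Between ES indirect and ES-1, crosslink, fragmentation method, fragment size and flow cell thus cannot be told apart. Between ES-1 and ES-2, depletion and fragment size cannot. ES-1 and ES-2 came from 2 flow cells that they share, and ES indirect and MEF from another 2.

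An H/ACA snoRNA folds into a pair of hairpins. The H box lies in the hinge between them, and an ACA triplet lies close to the 3′ end. The RNA is held by dyskerin (Dkc1), Nop10, Nhp2 and Gar1, and internal loops of the hairpins pair with a target, most often ribosomal RNA, to place a uridine that dyskerin turns into pseudouridine. In mammals most H/ACA snoRNAs are cut out of introns of host genes, many of which encode ribosomal proteins.

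The sequences of 8 loci are shown because the results below turn on their ends, their hinge or their self pairs. They were read from NCBIM37 (mm9) on the strand of the gene, 5′ to 3′, from the annotated 5′ end to the annotated or the most frequent 3′ end, whichever lay farther. Capitals mark the H box motif ANANNA in the middle of the RNA and the triplet that ended 3 nt before the most frequent RNA1 junction.
SNORA3, host Rpl27a, chr7:116664794-116664923, plus strand: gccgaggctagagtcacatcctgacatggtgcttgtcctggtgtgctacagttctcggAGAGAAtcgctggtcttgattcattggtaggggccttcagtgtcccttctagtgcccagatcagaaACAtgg
Snora64, host Rps2, chr17:24857717-24857850, plus strand: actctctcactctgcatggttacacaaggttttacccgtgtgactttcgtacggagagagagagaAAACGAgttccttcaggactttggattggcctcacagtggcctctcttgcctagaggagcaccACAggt
SNORA72, host Rpl30, chr15:34370546-34370677, minus strand: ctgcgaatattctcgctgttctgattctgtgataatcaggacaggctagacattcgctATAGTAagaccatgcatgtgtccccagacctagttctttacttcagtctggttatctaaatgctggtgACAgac
Snora28, host Eif5, chr12:112779152-112779279, plus strand: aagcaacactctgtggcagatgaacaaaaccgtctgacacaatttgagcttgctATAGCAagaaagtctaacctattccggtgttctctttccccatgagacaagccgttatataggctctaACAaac
SNORA40, host Rps16, chr7:29136527-29136652, plus strand: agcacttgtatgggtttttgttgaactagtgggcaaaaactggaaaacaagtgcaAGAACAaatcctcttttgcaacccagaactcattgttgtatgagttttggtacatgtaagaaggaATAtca
SNORA29, host Tcp1, chr17:13112451-13112588, plus strand: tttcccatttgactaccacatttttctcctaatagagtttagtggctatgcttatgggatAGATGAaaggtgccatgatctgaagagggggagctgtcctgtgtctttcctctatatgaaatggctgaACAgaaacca
SNORA74, host Timm23, chr14:33005039-33005236, minus strand: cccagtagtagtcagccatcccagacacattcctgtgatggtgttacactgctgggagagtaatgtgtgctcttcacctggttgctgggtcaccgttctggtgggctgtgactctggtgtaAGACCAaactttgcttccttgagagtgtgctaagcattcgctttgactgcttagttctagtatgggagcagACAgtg
SNORA42, host Rpl6, chr5:121655019-121655152, plus strand: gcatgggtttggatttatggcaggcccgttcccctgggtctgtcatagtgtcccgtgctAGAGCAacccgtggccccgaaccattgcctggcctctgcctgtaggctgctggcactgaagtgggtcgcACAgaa

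The names bore these features in the genome. Of the 250 loci found in the GENCODE annotation (Snora15 was not), 206 (82.4%) held ACA in their last 10 nt, against 15.6% and 14% of the windows of equal length just before and just after them on the same strand. The looser H box letters ANANNA lay in the middle of 210 (84.0%), against 49.2% and 45.2% of those windows. The minimum free energy fold had 2 exterior helices in 172. Loci were 58 to 246 nt long, with a median of 132 nt, and 130 lay inside another gene on its strand.

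After read pairs with equal coordinates of both fragments were counted once, 2310134 read pairs were left in ES-1, 1241787 in ES-2, 1655476 in the ES indirect library and 373978 in the MEF library. Where 4 values are given without names below, they stand in this order. The second of the 2 MEF flow cells stood apart. It held 1999 of the 21560 ends of these snoRNAs in MEF. Of its 1576 read pairs with one of them, 0 had a ribosomal partner (up to 0.190% by a count of 3) and 357 were self pairs. Over all RNAs, 254184 of 402830 annotated non-ribosomal ends in MEF were left without this flow cell. Ends with a ribosomal partner fell from 103343 to 98570, so ribosomal pairs were not absent from it. For mRNAs they fell from 56621 to 53271. For the Snora numbers left out, C/D box snoRNAs and Cajal body RNAs they stayed at 6152, 464 and 124, so other snoRNA classes behaved as the members did. Much of the MEF library also failed a filter on fragment length and linker pieces, called the length filter below. It kept read pairs only where both fragments were at least 20 nt long and free of linker sequence. In MEF 65859 of 402830 annotated non-ribosomal ends remained. In ES-1, ES-2 and ES indirect 1385563 of 1700158, 499298 of 927544 and 1273441 of 1549037 remained, so much of ES-2 was lost too. Many MEF values are therefore also given without the second flow cell and with this filter where they moved, 2 settings chosen after the data were seen. Others are given only with both flow cells and all lengths, so whether they move is not shown. Among these are the marker sums, the correlations between libraries, the shares by host and the shares of ribosomal subunits.

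The labelled cell types were visible in the ends of marker genes. The 12 ES markers (such as Pou5f1, Nanog and Esrrb) summed to 615 and 513 ends per 1000000 annotated non-ribosomal ends (EPM) in ES-1 and ES-2, and to 1709 and 171 in the ES indirect and MEF libraries. Esrrb alone gave 117, 108, 867 and 44.7 EPM, most of the sum in ES indirect. The 12 fibroblast markers (such as Col1a1 and Vim) summed to 445, 368, 402 and 1934. In MEF most of this sum came from Acta2 (650 EPM), Col1a1 (464) and Col1a2 (290), while Fn1 was lower in MEF (346, 262, 281 and 211) and Thy1 no higher than in ES-1 and ES-2 (5.29, 5.39, 3.87 and 4.96). The 14 genes of the H/ACA particle and its assembly were seen in all ES libraries and 13 of them in MEF, with sums of 204, 470, 577 and 285 EPM. Dkc1 itself had 35, 12, 32 and 0 ends.

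The snoRNAs took a large part of the ultraviolet libraries of ES cells and almost none of the library crosslinked with formaldehyde and EGS. They held 349758, 78838, 5698 and 21560 ends. As shares of annotated non-ribosomal ends these were 20.6%, 8.50%, 0.368% and 5.35%. The 2 ES assays thus already differed by more than a factor of 2. The MEF share was 7.70% without the second flow cell. With the length filter the shares were 22.6%, 11.8%, 0.361% and 17.3%, so that MEF lay between the ES assays instead of below both, while ES indirect stayed the lowest. They were seen at 230, 214, 172 and 196 loci, and 147 loci appeared in all libraries. No single locus held more than 5.03% of the ends in any library. The 10 most abundant loci of each library, ranked within it, held 38.4%, 37.4%, 35.2% and 34.5% of its ends.

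The order of the loci was much alike in ES-1 and ES-2. Across the 206 loci seen in both, log2 EPM gave Pearson's r of 0.94 and Spearman's rho of 0.95. Against ES-1, r was 0.84 over 163 loci in ES indirect and 0.88 over 190 in MEF. Loci are not independent replicates, and libraries share the biases of mapping and base composition, so these are descriptions.

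Several of the most abundant loci lay within genes of the translation machinery. SNORA3 of Rpl27a, a protein of the large ribosomal subunit, had 9993, 4045, 56.8 and 266 EPM. Snora64 of Rps2, a protein of the small subunit, had 8671, 2935, 110 and 2222. SNORA48 of Eif4a1, the helicase of translation initiation, had 8263, 3552, 167 and 1455. In each of these the ES-1 value was the highest and the ES indirect value the lowest. MEF lay below ES-2 in all 3, but with the length filter Snora64 had 9639, 4078 and 7349 EPM in ES-1, ES-2 and MEF and SNORA48 had 9019, 4699 and 5087, whereas SNORA3 kept its low MEF value (11153, 5880 and 1078).

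Snora74a of the noncoding host Snhg4 had 9920, 3755, 150 and 976 EPM. Snora15, on chromosome 5, had 7125, 1068, 15.5 and 417. The next loci were Snora3 of Rpl27a, Snora21 of Rpl23, SNORA40 of Rps16, SNORA67 of Eif4a1, Snora23 of the nuclear import factor Ipo7, SNORA18 of Taf1d, a subunit of the RNA polymerase I factor SL1, and Snora69 of Rpl39. Their ES-1 values ran from 4817 to 8344 EPM.

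**Figure D1:**
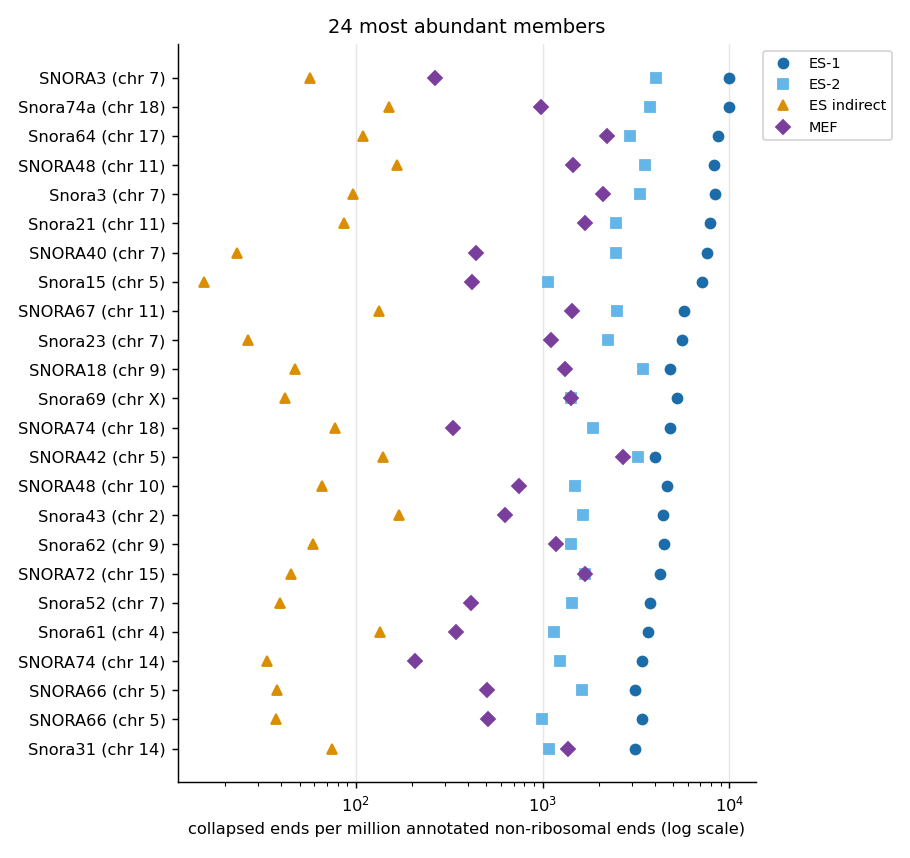
Collapsed EPM (log axis) of the 24 most abundant loci, 1 point per library and no error bars. ES-1 (circles) lies to the right of the other libraries for every locus shown and ES indirect (triangles) to the left. SNORA3 of Rpl27a runs from 56.8 in ES indirect to 9993 in ES-1.

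Grouped by host, the 17 loci in ribosomal protein genes held 37.5%, 34.8%, 28.6% and 34.4% of all member ends. The 7 loci in genes of translation factors held 8.78%, 9.12%, 10.004% and 8.41%. The 97 loci in other protein-coding genes held 32.9%, 33.4%, 35.8% and 37.8%, and the 9 in noncoding hosts held 12.6%, 11.1%, 16.8% and 7.49%. The 120 loci without a host on their strand held 4.78%, 10.3%, 8.32% and 11.2%, with a median of 21 ends in ES-1 and ES-2 together against 8773 for loci in ribosomal protein genes. Loci in ribosomal protein genes thus ran from 28.6% to 37.5% between the libraries, while those without a host and those in noncoding hosts varied by more than a factor of 2.

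Many loci are near copies of each other, and part of their counts cannot be placed. For 346265 fragments from 219 loci that share a number with another locus, the sequence was set against all loci of that number: 85.6% were closest to their own locus, 10.1% tied and 4.35% were closer to another. Of 113 such loci with at least 100 ends, 34 had under 10% of their fragments closest to themselves. SNORA26 on chromosome 1 at 162806333 had 4224 ends in ES cells of which 0.332% were closest to it, and 99.0% of its ends were RNA1. SNORA51 on chromosome X, SNORA42 on chromosome 9 and SNORA3 on chromosome 12 had 0.710%, 0.0989% and 9.005% closest to themselves. Levels at these loci are uncertain.

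Compared with the mean of ES-1 and ES-2, all 130 loci with at least 100 ends in ES and ES indirect together were lower in ES indirect, with a median log2 ratio of −5.19. Over all 5904 annotated non-ribosomal RNAs the median was 1.14, and 25.0% were lower. The C/D box snoRNAs had a median of −4.00 over 132 RNAs and the Snora numbers left out of the rule −6.05 over 46. The lower level was thus shared with the other snoRNA classes. With 2 assays against 1 library there is no test. EPM is a share of ends joined in the assay, and crosslink, fragmentation method and flow cell also differed. In bulk libraries these, fewer cells that hold an RNA and less of it per cell cannot be told apart.

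The locus with the smallest difference was SNORA32 of Taf1d, at 103 and 23.7 EPM in ES-1 and ES-2 and 37.4 in ES indirect (log2 ratio −0.76). SNORA70 of Csda, a cold shock domain protein, had 225, 62.5 and 45.2 (−1.67). SNORA77 of Ranbp1, a cofactor of the Ran GTPase, had 261, 118 and 28.4 (−2.73). SNORA48 on chromosome 19, SNORA11 of Wdyhv1 and SNORA25 on chromosome 13 came next, with −2.86, −2.94 and −3.005. For SNORA48 2.54% and for SNORA25 10.02% of fragments were closest to their own locus.

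At the other extreme, 7 of the 130 loci were not seen in ES indirect, where a count of 0 allows up to 1.94 EPM. They included SNORA40 on chromosome 2, with 177 and 264 EPM in ES-1 and ES-2, and SNORA35 of Lrch2 with 135 and 50.7. Every fragment of this SNORA40 was closer to another locus of its number, whereas every fragment of SNORA35 was closest to its own. The others named by the same rule were 2 SNORA67 loci on chromosome X, SNORA42 on chromosome 8 and SNORA48 on chromosome 5, at 15.1 to 80.9 EPM in ES-1 and ES-2.

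In MEF, 111 of 133 loci were lower than the mean of ES-1 and ES-2 and the median log2 ratio was −1.35. Over 3121 annotated non-ribosomal RNAs the median was −0.12 and 52.5% were lower. For the 130 C/D box snoRNAs it was −4.27. For 47 RNAs with the Snora numbers left out of the rule it was −1.52, close to that of the members. Set against each ES assay alone, the median of the members was −1.78 over ES-1 and −0.49 over ES-2. The median of ES-2 over ES-1 was itself −1.37 across 130 loci.

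This lower level in MEF did not hold in all settings. Without the second flow cell the median over the mean of ES-1 and ES-2 was −0.86, with 99 of 133 loci lower, and over all RNAs it was −0.63. With the length filter it was 0.11, with 62 of 126 loci lower, against −0.26 over all RNAs. In these 2 settings the Snora numbers left out had medians of −0.95 and 0.04, close to those of the members, while the C/D box snoRNAs kept −3.87 and −3.23. For ES indirect the filter left the median at −5.40, with all 124 loci lower.

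Single loci went further. Their values in the next sentences include both flow cells and all lengths. SNORA3 of Rpl27a had 266 EPM in MEF, a log2 ratio of −4.72, while Snora3, elsewhere in the same host, had 2103 and −1.47. SNORA13 of Ipo7 had 2213 and 617 in ES-1 and ES-2 and 42.2 in MEF (−5.07), while Snora23 of the same host had 5553, 2250 and 1105 (−1.82). SNORA12 of Cwf19l1 had 321 and 49.6 in ES-1 and ES-2 and was not seen in MEF, where a count of 0 allows 7.45 EPM. Loci of 1 host thus differed from each other in MEF. With the length filter the log2 ratios were −2.98 for SNORA3 and 0.12 for Snora3, and −3.46 for SNORA13 and −0.21 for Snora23, so that these differences within hosts remained.

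SNORA79 of Fbxo45 had 139 and 45.3 EPM in ES-1 and ES-2 and 2.48, a single end, in MEF. SNORA40 on chromosome 2 and SNORA3 on chromosome 12 were also among the lowest (log2 ratios −6.47 and −6.37), but few of their fragments were closest to their own locus. The highest ratios belonged to SNORA51 on chromosome 11 (67.6, 49.6 and 335 EPM in ES-1, ES-2 and MEF), SNORA65 on chromosome 14 (132, 22.6 and 290) and Snora47 of Zbed3 (383, 149 and 814). For SNORA51 1.86% and for SNORA65 2.45% of fragments were closest to their own locus, and Snora47 has no other locus to compare. In both other settings the ratios of these 3 loci were higher, at 2.69 and 4.35 for SNORA51, 2.45 and 2.46 for SNORA65 and 2.25 and 3.07 for Snora47. SNORA2 on chromosome 15, SNORA67 on chromosome 4 and SNORA65 on chromosome 12 followed with log2 ratios of 1.42, 1.25 and 1.08, and at most 3.70% of their fragments were closest to themselves.

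The position of the snoRNA in the chimera also differed between the libraries. It was RNA1, the fragment before the linker, in 76.7% of ends in ES-1 (95% Wilson interval 76.5 to 76.8%), 71% in ES-2, 43.1% for ES indirect and 41.6% for MEF. Within the 2 MEF flow cells it was 38.1% and 75.5%, and with the length filter the shares were 78.1%, 74.0%, 47.8% and 55.8%. The interval covers counting error only. The same shares over all annotated non-ribosomal ends were 70.1%, 66.6%, 53.1% and 58.9%, and over the Snora numbers left out 76.9%, 71.9%, 47.0% and 48.0%. Across 130 loci with at least 100 ends in ES-1 and ES-2 the median was 74.3%, from 21.4% to 100%.

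Where the linker was joined could be read from the fragment ends. The last base of RNA1 and the first base of RNA2 adjoin the linker, and are called junctions here. A junction was used only where the fragment lay on the strand of the gene and ended before the read did, and for RNA1 only where the fragment ended in C, the first base of the linker. This last condition held for 71.8%, 90.9%, 77.0% and 75.5% of such RNA1 ends. The position of a junction has an uncertainty of about 1 nt because the linker starts and ends with bases that the genome may also hold.

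RNA1 junctions of ES-1 and ES-2 lay mostly at the mature 3′ end. Within 5 nt of the annotated 3′ end were 77.9% of 165448 junctions in ES-1, 84.4% of 49158 in ES-2, 44.1% of 1633 in ES indirect and 26.8% of 6538 in MEF. In MEF 40.6% lay 45 to 65 nt before the 3′ end instead, against 6.77%, 4.76% and 15.7% in ES-1, ES-2 and ES indirect. With any last base of RNA1, a condition changed after the data were seen, the shares at the 3′ end were 59.8%, 80.4%, 37.9% and 24.1% and those at 45 to 65 nt 9.53%, 5.34%, 15.6% and 36.5%, so the order of ES-1 and ES-2 over the others was kept. RNA2 junctions lay within 5 nt of the annotated 5′ end in 43.5%, 41%, 37.9% and 33.7%. The libraries therefore differed far more in where RNA1 ended than in where RNA2 began. The MEF shares barely moved between settings: 27.9% at the 3′ end and 40.6% at 45 to 65 nt without the second flow cell, and 27.8% and 41.7% with the length filter. MEF was fragmented to shorter pieces by the labels, and the part of this in the result was not tested.

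**Figure D2:**
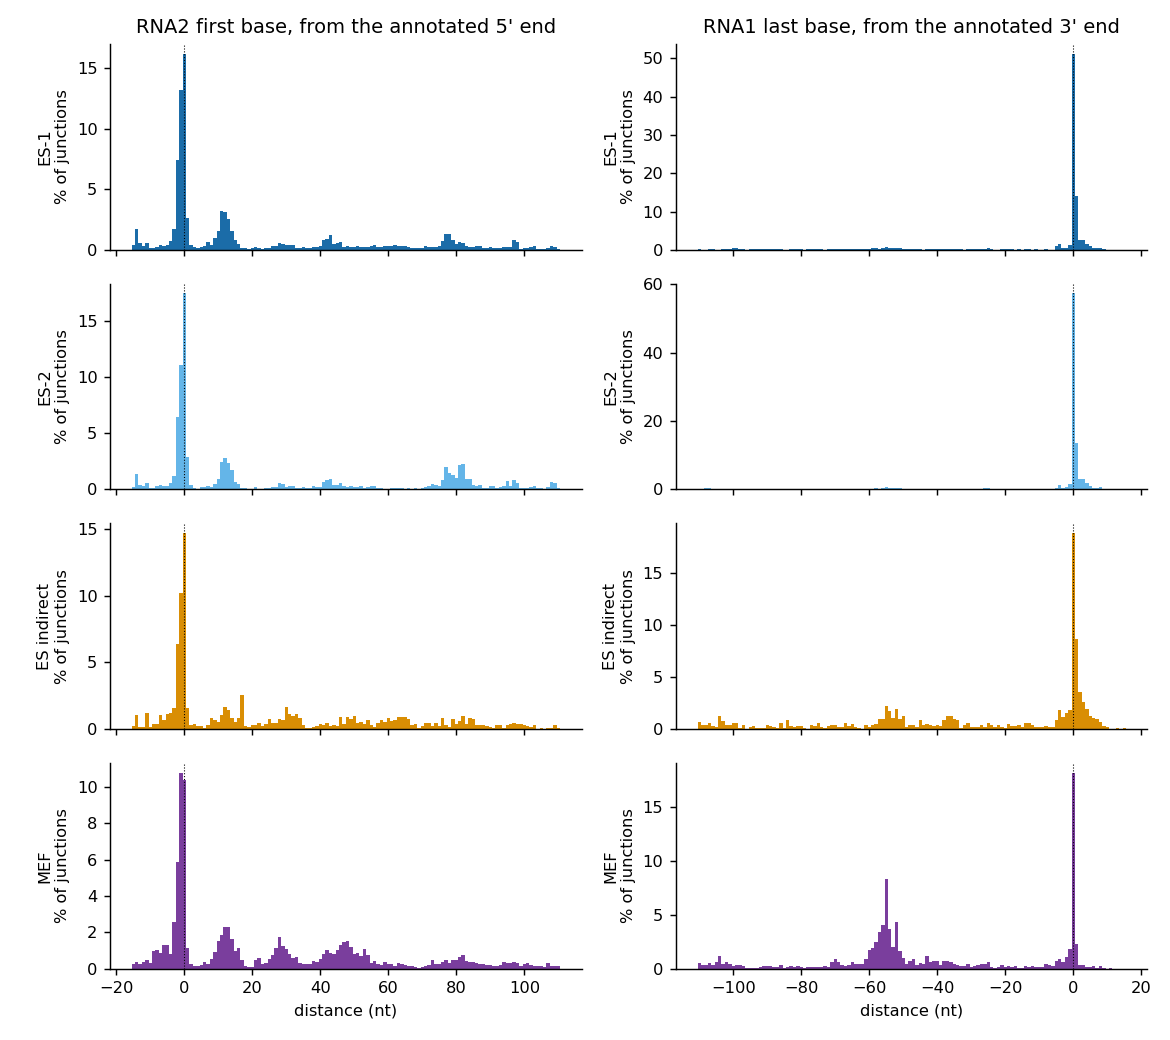
Share of RNA2 junctions by distance from the annotated 5′ end (left) and of RNA1 junctions by distance from the annotated 3′ end (right), in nt, 1 row per library and all loci summed. The column at the 3′ end holds 51.2% of RNA1 junctions in ES-1 and 18.2% in MEF, and a second group of MEF junctions lies 45 to 65 nt before the end (40.6%).

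The most frequent RNA1 junction near the 3′ end marked the ACA box. Of 98 loci with at least 100 such junctions in ES cells, the most frequent one lay exactly 3 nt after ACA in 90 and 3 nt after ATA in 4. By comparison, 4.21% of all positions within 15 nt of an annotated 3′ end were 3 nt after ACA. The letters ATA stood there in the SNORA40 loci on chromosomes 7 and 2, in SNORA74 of Snhg4 and in SNORA70 of Csda. Every fragment of the SNORA40 locus on chromosome 2 was closer to another locus of its number. In the 4 loci with neither ACA nor ATA, Snora43, SNORA42 on chromosome 12, Snora30 and Snora47, the letters were CAT, CGG, GTG and TTG. These exceptions were named after their letters were seen.

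The annotation placed 182 of 250 ends at 3 nt after ACA. The most frequent junction fell on the annotated last base in 80 of the 98 loci and within 1 nt of it in 91. The SNORA29 loci were chosen after their values were seen. SNORA29 of Tcp1, a subunit of the cytosolic chaperonin, was annotated 4 nt beyond its most frequent junction, which held 80.0% of its RNA1 junctions and lay 3 nt after the ACA in capitals above. The second SNORA29, in G3bp1, showed the same offset of 4 nt, again with ACA 3 nt before the junction, although that position held 38.3% of its RNA1 junctions.

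Many junctions inside the RNA lay downstream of the H box. For loci with an H box motif, RNA1 junctions away from the ends fell 15 to 23 nt after the first base of the motif in 23% of 30766 in ES-1, 29.2% of 5935 in ES-2, 24% of 789 in ES indirect and 46.3% of 4555 in MEF. The single most frequent distance was 17, 16, 22 and 17 nt. In MEF the most frequent inner junction lay in this stretch in 32 of 50 loci with at least 20 inner junctions, in ES-1 in 39 of 105, in ES-2 in 28 of 62 and in ES indirect in 5 of 11. Per locus, the median share in this stretch was 13.9%, 25.5%, 26.8% and 44.3%. The MEF share was 46.8% without the second flow cell and 47.9% with the length filter. These stretches were picked after the distances were seen, so the shares are descriptions.

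Single loci with sharp positions included Snora28, which was chosen after its values were seen. In MEF, Snora3 had 56.2% of its 203 inner RNA1 junctions at 17 nt, Snora28 had 40.2% of 174 at 16 nt, and Snora69 had 40.3% of 221 at 16 nt. Snora28 had its most frequent inner junction at 16 nt in ES-1 (11.1% of 243) and ES-2 (37.9% of 29) too. In ES-1 and ES-2 that of Snora69 lay at 19 nt instead (18.9% of 718 and 29.5% of 95). That of Snora3 lay at 18 nt (8.30% of 1421 and 15.7% of 229). Other loci had their most frequent distance elsewhere. In Snora64 it was 12 nt in ES-1, ES-2 and MEF, and 5.24%, 6.85% and 5.37% of its inner junctions lay at 15 to 23 nt. The middle of Snora64 holds several overlapping matches to ANANNA, however. Its distances depend on which match was used, and those from the other matches are not given here.

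RNA2 junctions had more than 1 such place. They fell 45 to 50 nt before the motif in 21.7%, 18.5%, 15.5% and 15.1% of inner junctions. They fell 16 to 24 nt after it in 15.5%, 28.5%, 10.1% and 8.44%. After the length filter the shares before the motif were 21.2%, 18.3%, 9.69% and 19.6% and those after it 16.4%, 29.1%, 12.5% and 8.27%. In the second MEF flow cell alone 30 of 91 (32.97%) lay before the motif. Another stretch, 19 to 21 nt before the motif, held 8.64%, 6.95%, 3.38% and 6.67% with all lengths and flow cells. The single most frequent RNA2 distance was 20 nt before the motif in ES-1 and 22 nt after it in ES-2. In ES indirect and MEF it was 46 nt before it. In the minimum free energy folds 54.7% of inner junctions of ES cells were at unpaired bases, where the median locus had 37.7% of its inner bases unpaired, and 108 of 121 loci had more junctions at unpaired bases than that share of bases.

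**Figure D3:**
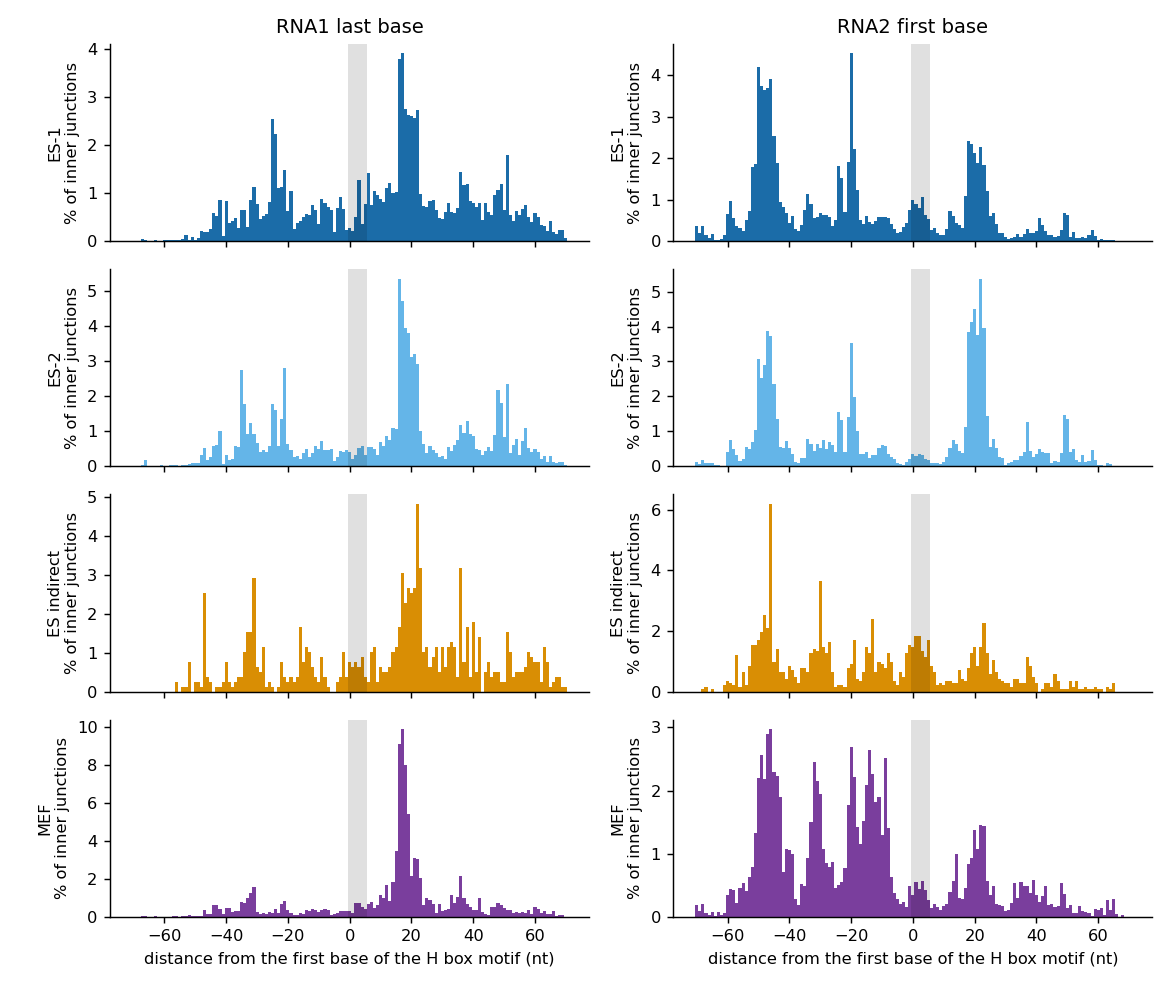
Share of inner junctions by distance from the first base of the H box motif (grey band), in nt, for RNA1 (left) and RNA2 (right), 1 row per library and loci summed. The RNA1 peak at 15 to 23 nt holds 46.3% of inner junctions in MEF and 23% in ES-1.

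The partner of a snoRNA was most often ribosomal RNA in ES cells. Ribosomal ends were the partner in 66.5%, 58.1%, 35.9% and 30.2% of read pairs. Without the second flow cell the MEF share was 32.8%, and with the length filter the shares were 69.4%, 66.1%, 44.3% and 54.6%. Classes were compared by single ends, since a pair of 2 members of a class would otherwise count differently in each. A ribosomal end was joined to 62.97%, 55.7%, 30.8% and 28.8% of the snoRNA ends, to 59.8%, 58.7%, 20.5% and 25.7% of all annotated non-ribosomal ends and to 67.7%, 54.6%, 46.2% and 23.6% of C/D box snoRNA ends. For the Snora numbers left out it was 62.0%, 55.3%, 31.5% and 30.8%, close to the members. The members were thus above all RNAs in ES-1, ES indirect and MEF and below in ES-2, but the direction was not stable: without the second flow cell MEF had 31.7% against 38.8%, and after the length filter ES-2 had 62.995% against 62.1%. These ends carry repeat names of the large (LSU) and small (SSU) subunit, that is, they were placed at copies of ribosomal sequence scattered in the genome, so positions on the ribosomal RNA itself were not analysed here.

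Of the ends named LSU or SSU, LSU made up 69.6%, 72.2%, 84.1% and 87.5%. Loci were alike in this. Across 117 loci with at least 100 such ends in ES cells the LSU share ran from 60.6% to 76.4%, with a median of 70.5%. SNORA72 of Rpl30 had 61.6% (Wilson interval 60.3 to 63%; ES-1 62.1%, ES-2 59.0%) and Snora28 of the initiation factor gene Eif5 had 62.8% (61.2 to 64.4%; 62.2% and 65.4%). SNORA18 of Taf1d had 76.1% (75.1 to 77.0%; 73.7% and 82.1%). The share in ES-1 and that in ES-2 gave an r of 0.49 over 71 loci, so the order of loci was only partly kept.

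Messenger RNAs were the partner in 8.91%, 15.4%, 22.9% and 27.1% of read pairs. Most of these ends were intronic (54.2%, 60.2%, 78.5% and 83.9%), and of 41166 in ES cells 9740 were given as exon, 3633 as 5′ and 4774 as 3′ untranslated region. Unannotated partners made up 5.35%, 7.75%, 10.9% and 16.8%, and repeats 3.18%, 6.54%, 7.79% and 14.4%. With both flow cells and all lengths MEF had the lowest ribosomal and the highest intronic, unannotated and repeat shares. With the length filter the ribosomal share was lowest and the mRNA share highest in ES indirect (7.21%, 10.9%, 18.3% and 13.1% for mRNA), intronic ends made up 46.6%, 50.5%, 72.3% and 68.8% of mRNA partners, unannotated partners 4.10%, 4.92%, 6.11% and 6.22%, and repeats 2.30%, 4.36%, 4.52% and 6.37%. The mRNA of the host gene was the partner in 38, 10, 47 and 0 read pairs, which was 4.19% of the pairs with mRNA in ES indirect and at most 0.129% elsewhere.

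Other snoRNAs were partners as well. The Snora numbers left out of the rule made up 5.58%, 3.78%, 1.15% and 4.46%, other loci of the rule 2.46%, 1.36%, 0.552% and 2.24%, and C/D box snoRNAs 2.17%, 1.58%, 0.838% and 0.356%. Spliceosomal snRNAs made up 0.860%, 0.322%, 1.15% and 0.127%, with U1 the most frequent in ES cells (1431 of 3091).

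**Figure D4:**
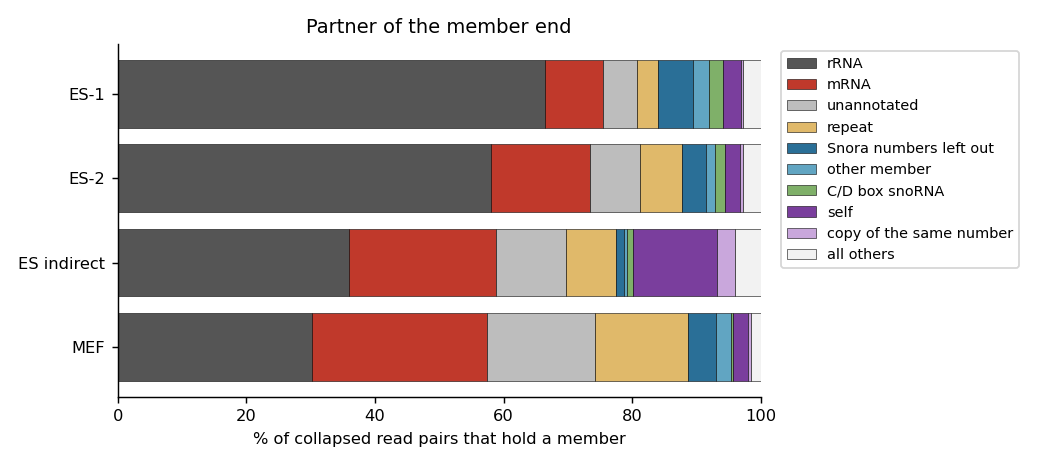
Share of collapsed read pairs by type of partner, 1 bar per library. Ribosomal partners take 66.5% in ES-1 and 30.2% in MEF (both flow cells and all fragment lengths), and self pairs take 13.1% in ES indirect.

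The type of partner was also set beside the site of the junction. Where RNA1 ended at the 3′ end of the snoRNA, 71.8%, 67.1%, 41.5% and 45.4% of partners were ribosomal. Where it ended inside, 72.2%, 62.3%, 32.2% and 43.0% were. The intervals of the 2 sites overlapped in ES-1 and MEF but not in ES-2 (66.7 to 67.6% against 61.1 to 63.4%) and ES indirect (38.0 to 45.2% against 29.1 to 35.4%). They cover counting error only. Self pairs count in these totals, so more self pairs at a site lower its ribosomal share. In ES indirect they were 142 of 720 ends at the 3′ end and 301 of 842 inside. Ribosomal shares without self pairs are not given here. Self pairs made up 2.99%, 2.21%, 19.7% and 4.05% at the 3′ end and 4.81%, 6.72%, 35.7% and 5.04% inside. In MEF these were 71 and 239 ends, against 121 self pairs with both fragments on 1 strand. Most thus came from the 357 pairs on opposite strands, all of the second MEF flow cell, described below. The MEF shares by junction site are not given in the other settings.

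Both fragments came from the same snoRNA in 2.72% of read pairs in ES-1 (Wilson interval 2.66 to 2.77%), 2.34% in ES-2 (2.23 to 2.45%), 13.1% for ES indirect (12.2 to 14.1%) and 2.33% for MEF (2.13 to 2.55%). Without the second MEF flow cell the MEF share was 0.639% (0.535 to 0.763%). Under the length filter the shares were 2.88%, 2.90%, 16.2% and 4.35%, which put MEF above both ES assays. Of the 451 MEF self pairs left by the filter, 106 had both fragments on the same strand, a share of 1.021%. The Snora numbers left out had 3.43%, 2.67%, 16.5% and 2.64%, C/D box snoRNAs 1.33%, 3.08%, 5.52% and 1.98%, Cajal body RNAs 12.8%, 7.97%, 41.9% and 3.44%, and mRNAs 4.87%, 1.79%, 40.2% and 1.08%. In each of these classes the share was highest in ES indirect, and it was larger there for mRNAs and Cajal body RNAs than for the snoRNAs.

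The order of the fragments differed. In ES-1 and ES-2, 63.1% and 68.5% of self pairs had the fragments in reversed order, so that the downstream part of the RNA preceded the linker. In ES indirect 35.9% were reversed and 39.4% had fragments that adjoined in the genome, as from 1 continuous molecule. In MEF 357 of 478 self pairs had fragments on opposite strands, and 21.8% of all were reversed. Over self pairs with both fragments on the strand of the gene, the reversed shares were 64.4%, 69.8%, 36.3% and 86.0% (104 of 121 in MEF), so that MEF had the highest. All 357 pairs on opposite strands came from 1 of the 2 flow cells, and 351 shared 1 end, with their other ends 10 nt apart. Without these 357 the MEF share of self pairs was 0.590%.

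Reversed self pairs with both junctions known joined the mature ends to each other in many cases. Both junctions lay within 5 nt of the annotated ends in 47.7%, 44.7%, 48.8% and 10.3% of them. Of 20 loci with at least 100 self pairs of known junctions in ES cells, 12 had the 3′ end joined to the 5′ end as their most frequent join, counted in windows of 5 nt to each side. SNORA13 of Ipo7 had 110 of 120 self pairs (91.7%) in that window, SNORA3 of Rpl27a 91 of 119 (76.5%), SNORA72 237 of 343 (69.1%) and SNORA40 of Rps16 249 of 372 (66.9%).

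Loci differed widely in how often they paired with themselves. Across 130 loci with at least 100 read pairs in ES cells the median share was 1.82%. In ES-1 and ES-2 together SNORA74 of Timm23, a translocase of the mitochondrial inner membrane, stood far above the rest. It had 984 of 5939 read pairs (16.6%, Wilson interval 15.6 to 17.5%). In ES-2 alone SNORA53 of Slc25a3, given below, was higher. The share of SNORA74 of Timm23 was 18% in ES-1, 9.99% in ES-2, 52.9% of its 34 read pairs in the ES indirect library and 1.20% of 83 in the MEF library. Its share of ends with a ribosomal partner was 38.6%, against a median of 61% over the loci.

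The self pairs of this SNORA74 had a shape of their own. In 703 of 984 the fragments kept their genomic order and lay apart. Of 759 with both junctions known, 458 (60.3%) joined RNA1 ending near base 97 to RNA2 starting near base 144 of the sequence above, 410 of 667 in ES-1 and 48 of 92 in ES-2. The H box motif in capitals begins at base 122, between these places. In the minimum free energy fold the 2 bases are 47 steps apart, as far as along the chain. In SNORA42 of Rpl6, RNA1 ended near base 108 and RNA2 began near base 112, 4 bases on, in 170 of 377 (45.1%). In SNORA67 of Eif4a1 the 3′ end was joined to an inner base, near 50, in 75 of 141 (53.2%), and in Snora74a to one near base 78 in 68 of 237 (28.7%). The 4 remaining loci had the 3′ end joined near base 11 or 12 (Snora21 and SNORA53) or to bases upstream of the annotated 5′ end (Snora43 and Snora23).

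SNORA53 of Slc25a3, the mitochondrial phosphate carrier, had 7.70% self pairs (6.89% in ES-1, 10.8% in ES-2), while Snora20 of Tcp1 had 7.51% (8.03% and 5.31%). SNORA70 of Rg9mtd1 had 7.45% (8.29% and 4.20%) and SNORA70 of Snx5 had 6.58% (6.88% and 5.74%). SNORA32 of Taf1d had 12 of 185 (6.49%), all in ES-1. Intervals of these 5 loci overlapped each other.

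No self pair was seen for 28 of the 130 loci. The 4 with most read pairs were SNORA51 on chromosome X (0 of 1410, which allows up to 0.213%), SNORA42 on chromosome 9 (0 of 1013, up to 0.296%), SNORA66 on chromosome 4 (0 of 830, up to 0.361%) and SNORA21 on chromosome 7 (0 of 769, up to 0.390%). None of the 4 has a host on its strand, RNA1 made up 85.8% to 99.7% of their ends, and at most 6.64% of their fragments were closest to their own locus. The part of reads from other copies in this result was not tested.

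**Figure D5:**
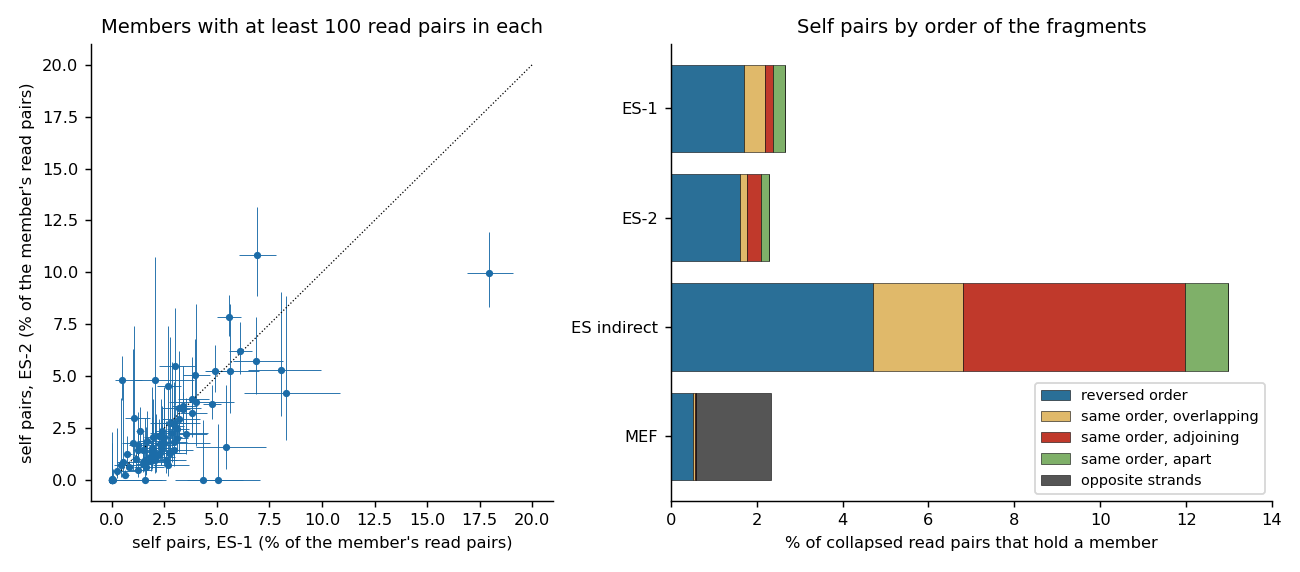
Left, share of self pairs of each locus in ES-1 (x axis) and ES-2 (y axis), in percent, with 95% Wilson intervals, for the 85 loci with at least 100 read pairs in each; the point at 18% and 9.99% is SNORA74 of Timm23. Right, self pairs by order of the fragments as a share of read pairs; the dark MEF segment is the 357 pairs on opposite strands.

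Most loci with the most concentrated junctions had fragments that tied with, or were closer to, another copy. The 6 with the largest share of junctions in 1 window of 10 nt were SNORA40 on chromosome 2, SNORA76 on chromosome 4, SNORA42 on chromosome 9, SNORA70 on chromosome 17, SNORA3 on chromosome 12 and SNORA26 on chromosome 1. In SNORA40 all 535 junctions lay in the window from base 104 to 113, and none was an RNA2 junction. In SNORA3 on chromosome 12 the window held 95.8%. SNORA76 was the exception: 98.5% of its fragments were closest to its own locus, and its window, from base 4 to 13, held 98.3% of junctions, nearly all RNA1. The other 5 had at most 9.005% closest to themselves.

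Pairs of different RNAs were tested for more read pairs than their totals would give. In ES-1 and ES-2 together, a one-sided Fisher's exact test over 227779 observed pairs of RNAs called 0.895% of them at a threshold of 0.05 on the Benjamini-Hochberg adjusted p and of 3 read pairs. Of 52772 pairs that held one of the snoRNAs, 514 (0.974%) were called, a share close to that background. Alone, ES-1 gave 414 (1.01%, background 1.09%) and ES-2 195 (1.13%, background 0.719%). Calls in both numbered 87, which is 21% of the ES-1 calls and 44.6% of the ES-2 calls. ES indirect gave 20 (1.17%, background 2.54%) and MEF 71 (0.975%, background 0.842%), or 33 (0.506%, background 0.564%) without the second MEF flow cell and 19 (0.646%, background 0.6%) with the length filter. The test counts read pairs and holds no replicate error, and only pairs seen at least once enter it, which makes its p-values too small. Expected counts below are the read pairs of each RNA multiplied and then divided by all read pairs in the test. Each read pair enters the totals of both its RNAs, so joining ends at random would give fewer than these counts. This makes p-values larger, and the net effect was not tested.

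Copies of 1 number made up 78 of the 514 calls, 47.3% of the 165 such pairs tested. SNORA26 on chromosome 1 and Snora26 of 2700023E23Rik shared 91 read pairs (74 in ES-1, 17 in ES-2, 3.00 expected). SNORA19 of Cbwd1 and Snora19 of Eif3a shared 68 (64 and 4, 0.721 expected), and 99.3% and 99.5% of their fragments tied between copies. SNORA48 of Eif4a1 and SNORA48 on chromosome 17 shared 77 (70 and 7, 3.99 expected). Such pairs cannot be told apart from self pairs of 1 copy.

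Among different numbers, SNORA72 of Rpl30 and Snora24 shared 97 read pairs (73 from ES-1, 24 from ES-2), where 33.9 were expected (adjusted p by Fisher's exact test 3.4e-16). SNORA72 also shared 73 with SNORA18 of Taf1d (48 and 25, 17.8 expected, 5.7e-20). SNORA62 and SNORA9 shared 75 (59 and 16, 20.99 expected, 2.5e-17). These 3 pairs were called in each ES assay on its own. ES indirect held 0 read pairs of each, and MEF held 1, 1 and 0.

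Snora74a of Snhg4 was in 3 of the 10 called pairs with most read pairs. It shared 92 with SNORA4 (65 and 27, 44.1 expected) and 87 with Snora15 (73 and 14, 44.9 expected), both called in each assay. With SNORA3 of Rpl27a it shared 95 (80 and 15, 74.1 expected, adjusted p by Fisher's exact test 0.048), called in neither alone. Snora61 and Snora73b, in 70 read pairs (62 and 8, 45.2 expected), were also called in neither alone.

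Spliceosomal RNAs were in 6 calls, 1.11% of 539 such pairs tested, near the background of 0.895%. SNORA22 of Cct6a, a chaperonin subunit, and U1, which recognises the 5′ splice site, shared 58 read pairs (52 in ES-1, 6 in ES-2, 22.2 expected) and were called in both assays. U6, at the catalytic centre of the spliceosome, was paired with Snora64 (32 read pairs, 18.6 expected), Snora69 (21, 10.8 expected), SNORA46 (17, 4.14 expected), SNORA54 (10, 3.26 expected) and SNORA27 (5, 0.993 expected). None of the U6 pairs was called in ES-2 alone, and that with Snora69 was called in neither assay alone. No pair with ribosomal RNA could be called, since ribosomal ends were outside the test.

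Protein-coding genes were in 261 calls, 0.802% of 32535 such pairs tested, and 188 of all 514 calls had exactly 3 read pairs. The pairs with mRNA that had most read pairs were picked after their values were seen. SNORA42 on chromosome 12 shared 43 with Nav1 (19 in ES-1, 24 in ES-2, 0.710 expected), 33 with Cfi (17 and 16) and 22 with Osbpl10 (12 and 10). SNORA48 of Eif4a1 shared 35 with Serpinc1, the antithrombin gene (23 and 12, 3.31 expected). The mRNA fragments were intronic, with median lengths of 25, 26, 27 and 20 nt in the order given. Snora64 shared 31 with the tumour suppressor gene Fhit (29 and 2, 5.83 expected), and MEF held 21, none of which passed the length filter described above.

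Other mRNAs were joined to many of the snoRNAs. Dnahc7b was the partner of 1717, 144, 7 and 12 ends, at 117 different loci in ES cells. Fhit had 47, 28, 21 and 564, at 29 loci in ES cells, and Agap1 60, 45, 47 and 398, at 45 loci. Rpl3, a protein of the large ribosomal subunit, had 308, 41, 2 and 2, at 83 loci. Nav1 was the partner at 16 loci and Serpinc1 at 23. With the length filter Fhit and Agap1 had 0 and 2 ends in MEF, where Atp2b4 came first with 30, while Dnahc7b kept 1627 in ES-1 and 118 in ES-2. Without the second flow cell Fhit and Agap1 had 563 and 398 ends in MEF.

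SNORA3 of Rpl27a had the most called partners, 37, followed by SNORA74 of Snhg4 with 22, SNORA42 of Rpl6 with 21, Snora15 with 20, and Snora64 and SNORA48 of Eif4a1 with 19 each. SNORA3, Snora15, Snora64 and SNORA48 of Eif4a1 were also among the 12 loci with most ends. Pairs tested per locus are not given here, so these counts are not shares and do not set the loci apart. Of the 514 pairs, 295 had read pairs in both ES assays, 57 had one in ES indirect and 55 in MEF, and 17 and 9 were called there. The same overlaps between libraries over all 2039 called pairs are not given here.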

How the data were processed

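The deposited files list 1 read pair per line in 17 columns, with positions, strands, RNA type and RNA name of each fragment in columns of other kinds than an expression unit. The authors made them from the reads. By the study's methods their own pipeline, MARIO tools, took out PCR duplicates, sorted reads to samples by barcode, found the linker, split each chimera at it and mapped both fragments. The submitters' processing notes name TopHat2 2.1.1 and the builds mm9 and NCBIM37, with no role; the mapping settings are not given in sources used here. The ES and MEF libraries were used and the brain libraries were not.

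Lines with equal coordinates and strands of both fragments were counted once. Levels (EPM) are collapsed ends per 1000000 annotated non-ribosomal ends, and 95% Wilson intervals cover counting error only. PCR copies with shifted ends may remain in them. Positions and host genes came from GENCODE release 1 on NCBIM37. Junctions were used if RNA1 was not 90 nt and ended in C (the first base of the linker), or RNA2 was not 100 nt. The H box was searched from 35% to 65% of the length. Where several matches lay there, that with the fewest paired bases in the fold was used, then that nearest the middle. Folds came from ViennaRNA 2.7.2 and copies were compared with edlib 1.3.9.post1; other steps used python 3.11.15, pandas 2.3.3, numpy 2.4.6, scipy 1.17.1 and pysam 0.24.0. Pairs of RNAs over 2000 bp apart were tested with a one-sided Fisher's exact test, which was tested on simulated data. No replicated test of levels was possible. ES-1 and ES-2 came from the same 2 flow cells, and ES indirect and MEF from another 2.

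Loci named are those with most ends (12), highest (6) and lowest (4) shares of self pairs, largest differences of ES indirect and MEF from ES in each direction (6), most called partners (6), most concentrated junctions (6), the 10 called pairs with most read pairs and all calls with snRNA; those chosen later are marked. The members and lists were chosen with earlier results of these data known. Alternatives covered collapsing, fragment length and linker pieces, match to mm9, strand, flow cell, leaving out ES-1 or ES-2, and the definitions of each measure. For MEF, leaving out the second flow cell, the filter on length (at least 20 nt, no linker piece) and each ES assay alone as reference, and for RNA1 junctions any last base, were added after the data were seen.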

Additional observations from a re-analysis of the deposited data

How the results depend on the processing

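Of 74 alternative values, 55 stayed within the spread between ES-1 and ES-2 or, for counts, within 1.5 times, and 19 moved further. The share of self pairs in ES-1 and ES-2 together (2.65%) became 4.06% with every line counted, 1.51% with coordinates within 2 nt collapsed, 3.48% within the first flow cell and 3.07% with copies of 1 symbol included; leaving out an assay gave 2.34% to 2.72%. The ribosomal share (64.9%) was 2.19% by the strand-aware gene annotation, which does not hold the repeat copies, and 58.1% to 66.5% without an assay. The mRNA share (10.1%) was 4.46% with exonic ends only and 8.91% to 15.4% without an assay. Without an assay, the share of junctions in the first part of the RNA was 25.8% to 30.1%, and the RNA1 share 71% to 76.7%. The share of the 10 most abundant loci (37.5%) was 34.3% with coordinates within 2 nt collapsed, 21.7% for 5 loci, and 37.4% to 38.4% without an assay. The 514 called pairs became 4754 with every line counted, 1850 with every line and at least 2 coordinate pairs, 256 with at least 5 read pairs, 294 at an adjusted p of 0.01, and 195 without ES-1 to 414 without ES-2. For MEF, 36 values were recomputed in settings added after the data were seen: 15 stayed within their interval or the spread, 20 moved and 1 reversed. Without the second flow cell and with the length filter, in this order, the share of member ends (5.35%) was 7.70% and 17.3%, the RNA1 share (41.6%) 38.1% and 55.8%, the ribosomal share (30.2%) 32.8% and 54.6%, the mRNA share (27.1%) 26.4% and 13.1%, the unannotated share (16.8%) 16.3% and 6.22%, the self share (2.33%) 0.639% and 4.35%, and called pairs (71) 33 and 19. The filter alone moved the repeat share (14.4%) to 6.37%, the intronic share (83.9%) to 68.8%, self pairs on 1 strand (0.590%) to 1.021%, RNA2 junctions at the 5′ end (33.7%) to 35.9%, RNA2 junctions before the H box (15.1%) to 19.6% and RNA1 junctions after it (46.3%) to 47.9%. With any last base of RNA1, the share of its junctions at the 3′ end was 59.8%, 80.4%, 37.9% and 24.1% in the 4 libraries. The length filter turned the median log2 level of MEF over ES from −1.35 to 0.11. Apart from the construction of each alternative, the causes were not tested. No paired analysis was possible because ES indirect and MEF have 1 library each, and the Fisher's exact test counts read pairs, not libraries. MEF, with 373978 read pairs, and ES indirect, with 5698 member ends, limit what can be said of single loci there.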
